A study of Mus musculus with 2 samples.

Results

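The regions described here are the binding peaks of PPARγ that lay in gene deserts of mouse TH2 cells. A peak was a member when its centre was more than 100 kb from every transcription start site (TSS) of a protein-coding gene and outside the promoter, from 1000 bp before to 100 bp after the TSS, of any annotated transcript, noncoding ones included. By this rule 401 of the 2537 deposited peaks were members, or 15.8% (95% exact binomial interval 14.4 to 17.3%). Another 12 peaks beyond 100 kb lay in promoters of noncoding transcripts and were left out. The rule used position alone, so that distance to coding genes is a description here, whereas sequence was free to vary.

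Naive CD4 T cells of C57BL/6J mice were activated and polarised to TH2 in culture, transduced on days 1 and 2 with a retrovirus expressing Pparg with a TY1 epitope tag, and harvested on day 4. Chromatin was precipitated with an antibody against the tag. An input library of the same kind of cells, sequenced without antibody, served the authors as background for calling peaks. What was mapped is therefore the tagged receptor made from the retrovirus, not the PPARγ of the cells themselves. There was 1 ChIP library of 10229438 tags and no replicate, so peaks or sequence matches are the units of every p-value, which speaks of these peaks and not of the spread between cultures. All intervals cover counting error alone.

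PPARγ is a nuclear receptor that is activated by fatty acids and their derivatives and binds DNA as a heterodimer with RXR. Its preferred site is called DR1, in which AGGTCA occurs in tandem with 1 base between the copies, and in fat cells most of its sites lie away from promoters. TH2 cells of mice express the receptor and are known to need it for full type 2 effector function. Gene deserts are long stretches without protein-coding start sites. Some of them, such as those around Myc and Gata3, are known to hold enhancers that act over long distances.

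The sequences of 5 desert peaks introduce the set. They are the members with a DR1 match of at most 1 mismatch that lay in a cluster of at least 3 peaks or beside a gene of the lists described further on. All are written 5′ to 3′ on the plus strand of mm10 (GRCm38), and the capitals mark the 13 bases of the DR1 match. The first lay 204 kb from the TSS of Ets1, a transcription factor of lymphocytes, in a cluster of 7 peaks at chr9:32899875-32900047, with the match on the minus strand. The next lay 483 kb from Gata3, the factor that directs TH2 fate, in an intron of the lncRNA gene Gm13219, at chr2:9395211-9395386; 3 bases before the peak are included because the match begins there. The other 3 lay in introns of protein-coding genes, with the match on the plus strand. They were a peak in Plcl2, which encodes a phospholipase C-like protein, at chr17:50657251-50657423, a peak in Maml3, which encodes a Notch coactivator, at chr3:51999248-51999420, and a peak in Dock8, which encodes a regulator of the lymphocyte cytoskeleton, at chr19:25102709-25102881.
Ets1 desert: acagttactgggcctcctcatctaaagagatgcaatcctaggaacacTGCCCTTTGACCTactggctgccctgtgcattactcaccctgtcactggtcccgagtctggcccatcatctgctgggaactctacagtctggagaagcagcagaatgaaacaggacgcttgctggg
Gata3 desert: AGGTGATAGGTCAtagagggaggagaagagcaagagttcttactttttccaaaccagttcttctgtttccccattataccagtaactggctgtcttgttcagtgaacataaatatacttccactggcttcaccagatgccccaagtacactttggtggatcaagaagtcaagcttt
Plcl2 intron: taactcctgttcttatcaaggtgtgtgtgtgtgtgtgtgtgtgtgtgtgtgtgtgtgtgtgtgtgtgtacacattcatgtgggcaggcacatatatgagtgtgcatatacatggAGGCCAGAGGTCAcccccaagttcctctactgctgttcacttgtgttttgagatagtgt
Maml3 intron: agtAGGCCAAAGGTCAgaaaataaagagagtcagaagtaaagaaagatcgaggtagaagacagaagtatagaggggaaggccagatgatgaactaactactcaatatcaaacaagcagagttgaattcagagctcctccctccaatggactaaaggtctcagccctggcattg
Dock8 intron: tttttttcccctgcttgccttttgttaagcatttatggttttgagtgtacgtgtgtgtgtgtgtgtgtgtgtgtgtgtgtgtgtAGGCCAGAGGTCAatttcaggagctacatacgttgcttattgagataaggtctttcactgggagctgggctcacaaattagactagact
The Plcl2 and Dock8 peaks hold the same 13 bases, AGGCCAGAGGTCA, and in both the match is repeat-masked in the reference and has a run of GT dinucleotides before it, directly so in Dock8. That word was the single DR1 word found in more than 1 desert peak, and it also stood in 9 of the other distal peaks.

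Desert peaks were sparse. Desert sequence made up 1085 Mb, or 41.0% of the 2648 Mb of known reference sequence, and held 0.370 peaks per Mb against 1.37 per Mb outside. The density of all peaks was lower with each step away from coding start sites, from 1.95 per Mb within 10 kb to 1.29 at 10 to 50 kb and 0.903 at 50 to 100 kb. It was 0.640 per Mb at 100 to 200 kb, 0.299 at 200 to 500 kb, 0.173 at 500 to 1000 kb and 0.0840 (0.0338 to 0.173) beyond 1000 kb, where 7 peaks lay. The rule sits on this slope without a step, since 16 peaks lay in the 5 kb before the limit and 20 in the 5 kb after it. The nearest peak outside the rule was 99.5 kb from a coding TSS and the nearest inside was 100.1 kb away.

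**Figure D1:**
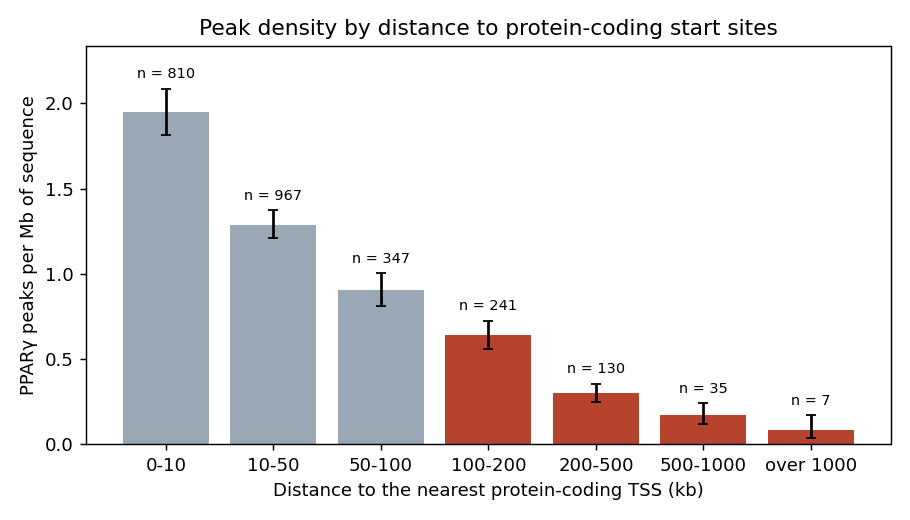
PPARγ peaks per Mb of reference sequence (y axis) by distance to the nearest protein-coding TSS in kb (x axis); bars are all peaks of the 1 library, red where the distance exceeds 100 kb, with exact 95% Poisson intervals and the number of peaks above each. Density is lower in each bin than in the one before, from 1.95 to 0.0840 per Mb.

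Among the members the median distance was 176 kb (quartiles 128 and 306 kb). Of the 401 peaks, 232 lay at 100 to 200 kb, 128 at 200 to 500 kb, 34 at 500 to 1000 kb and 7 beyond. The most remote, at chr8:50493206-50493378, was 1819 kb from Tenm3, a neuronal adhesion gene, inside the lncRNA genes Gm45341 and Gm45455. Another lay 1242 kb from Zeb2, a transcription factor of T cell differentiation, and a further one 1173 kb from Nmbr, a neuropeptide receptor gene. One of the 7, at chr12:115012404-115012576, stood in the immunoglobulin heavy chain locus, whose gene segments the annotation does not class as protein-coding; it and a peak at chr12:113339236-113339408 were the 2 members with an antigen receptor segment within 100 kb. Members came from all chromosomes. Chromosome 15 had the most, 40 peaks or 0.885 per Mb of desert, followed by chromosome 13 with 35 (0.715 per Mb). Chromosome X had 4 in 69.3 Mb (0.0577 per Mb) and chromosome Y 2 in 58.4 Mb. Whether reads could be placed uniquely there was not tested.

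A minority of desert peaks lay inside a transcribed unit. Of the 401, 114 (28.4%, 24.1 to 33.1%) lay inside a protein-coding gene and 51 (12.7%, 9.62 to 16.4%) inside a lncRNA gene only, while 236 (58.9%, 53.9 to 63.7%) lay in no annotated gene. Of desert sequence, 21.2%, 7.26% and 70.6% belonged to these classes. Density was therefore 0.648 peaks per Mb in lncRNA genes, 0.495 in coding genes and 0.308 in unannotated sequence. Because the rule fixed distance to start sites, which gene bodies also depend on, these shares were not tested.

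**Figure D2:**
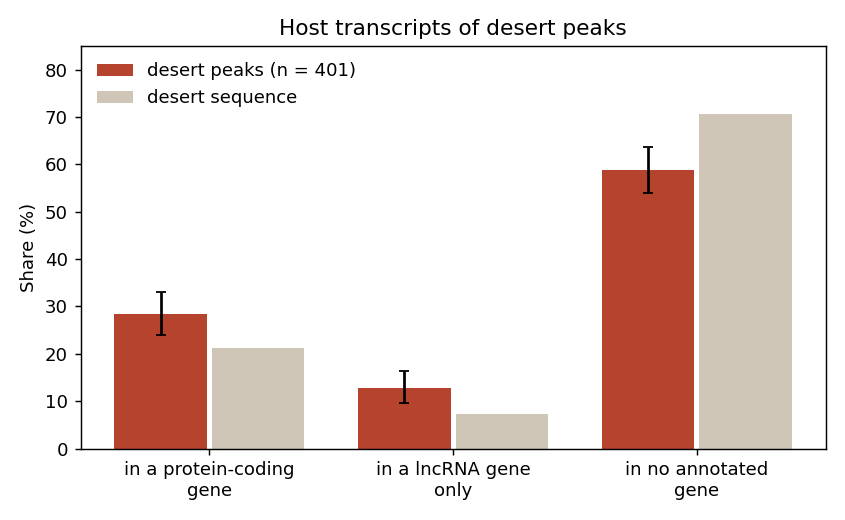
Share in percent (y axis) of the 401 desert peaks (red, with exact 95% binomial intervals) and of desert sequence (grey) inside a protein-coding gene, inside a lncRNA gene only, or in no annotated gene (x axis). Peaks in genes take a larger share than the sequence does, 28.4 against 21.2% and 12.7 against 7.26%.

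The coding hosts were 94 genes with a median length of 349 kb, and 18 of them held at least 2 desert peaks. Their length was in part set by the rule, since a peak more than 100 kb from its host's TSS needs a host longer than that. Each of 4 genes held 3. Rora, which encodes the nuclear receptor RORα and is active in type 2 lymphocytes, had peaks 319, 374 and 512 kb downstream of its first TSS; the first of these held a DR1 match. Akap13, which encodes an anchoring protein for protein kinase A, had 3 peaks, and Maml3 had 3 within 85.5 kb. Plcl2 held 3 desert peaks within 42.2 kb and 6 peaks in all. Among the hosts of 2, Inpp4b, a phosphatase that limits PI3K signalling, held 8 peaks in all, of which 6 lay nearer than 100 kb to a coding TSS. Arhgap15 encodes a GTPase-activating protein for Rac, Camk2d a calmodulin-dependent kinase, Itpr1 the calcium channel opened by IP3, Diaph3 a formin and Uvrag a regulator of autophagy. Auts2 and Lrrc7 are better known from neurons, and Dis3l2 is an exoribonuclease, Nsmce2 a SUMO ligase, Smyd3 a methyltransferase and Tasp1 a protease. Scaper and 2010111I01Rik complete the list. The 2 peaks in Lrrc7 were close neighbours, 384 and 385 kb from its TSS, as were those in Nsmce2 at 108.8 and 109.3 kb.

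Noncoding hosts were 52 lncRNA genes with 57 peaks, 6 of which also lay in a coding gene. Of these genes 8 held at least 2 desert peaks, and several stand next to regulators of T cells. Gm19585 (chr17:51986415-52163976) held 3 peaks in the desert beside Satb1, a chromatin organiser of T cells, at 203, 292 and 329 kb from the Satb1 TSS. Gm31718 (chr8:126812640-126908215) held 3 desert peaks and 6 in all, and 2 of the desert peaks lay in its exons. D030024E09Rik held 2 peaks at 384 and 439 kb from Myc. Gm36723 held 2 at 342 and 374 kb from Id2, an inhibitor of E proteins. Gm34047 held 2 at 106 and 118 kb from Ahr, the aryl hydrocarbon receptor gene, and Gm14005 held 2 in the desert between Bcl2l11, which encodes the pro-apoptotic protein BIM, and Spdye4c. These were at 266 and 289 kb from Bcl2l11 and nearer to Spdye4c, at 199.9 and 177 kb. 2610307P16Rik held 2, at 204 and 340 kb from Sox4, and Gm15232, on chromosome X, held 2 at 117 and 119 kb from Tmsb4x, which encodes thymosin β4. In all, 7 peak centres lay in an exon, each of a lncRNA: 2 in Gm31718 and 1 each in Gm15232, Gm30159, Gm20139, Gm14636 and Kcnq1ot1, the imprinted transcript of the Kcnq1 domain.

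The TSS of a lncRNA was nearer than any coding TSS for 307 of 401 peaks (76.6%), at a median distance of 76.3 kb; in the other distal peaks (outside promoters and at most 100 kb from a coding TSS, 1932 in all) the median was 48.3 kb. Because the rule kept every coding TSS more than 100 kb away, a nearer lncRNA TSS was in large part set by the rule. A lncRNA TSS lay within 10 kb of 55 desert peaks (13.7%), within 50 kb of 158 (39.4%) and within 100 kb of 232 (57.9%). The same shares of desert sequence were not computed, so these are a description. Among the 55 was 1 peak 7.8 kb from Zswim6, which the annotation used here does not class as protein-coding. Each of 4 lncRNA start sites had 2 desert peaks within 10 kb. D730003K21Rik lay in the desert beside Tgfbr2, the TGF-β receptor gene, Gm28981 between Klf7 and Creb1, Gm42968 inside Lrrc7 and Gm45211 between Klhl25 and Agbl1. The 2 peaks beside Gm28981, at 179.8 and 184.4 kb from Klf7, differed in sequence: the one at 1.76 kb from the lncRNA TSS held an AP-1 match and the one at 2.87 kb a DR1 match.

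MicroRNA genes lay within 50 kb of 9 of the 401 desert peaks, 13 genes in all. The same count was not made for other peaks or for desert sequence, so it is a description. A single peak, chr13:63320557-63320729, lay in an intron of 2010111I01Rik and Fancc and had a DR1 match; it was 19.4 kb from Mir24-1, 19.9 kb from Mir27b and 20.2 kb from Mir23b, which form 1 cluster, and 19.4 kb from Mir3074-1 on the opposite strand. The microRNAs miR-24 and miR-27 are known to restrain cytokine production by TH2 cells. A peak in an exon of the lncRNA Gm14636 on chromosome X, chrX:19166246-19166418, was 19.4 kb from Mir222 and 19.9 kb from Mir221. The peaks nearest to a microRNA gene were 1 inside Rnls, 3.12 kb from Mir3970, and 1 inside Cux1, 3.66 kb from Mir721. Mature sequences (RefSeq, GRCm38) of the first 2 loci follow with the seed, bases 2 to 8, in capitals; miR-221-3p and miR-222-3p share theirs.
miR-24-3p: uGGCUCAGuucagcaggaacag
miR-27b-3p: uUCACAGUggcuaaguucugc
miR-221-3p: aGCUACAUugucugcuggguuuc
miR-222-3p: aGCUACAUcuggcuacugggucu
Whether the peaks bear on these microRNAs was not tested, since no RNA was measured here.

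Most desert peaks stood alone and a few deserts held many. Linking centres within 50 kb gave 328 groups, of which 47 held at least 2 peaks and 14 at least 3. In the groups of at least 2 were 120 peaks (29.9%), against 36.9% of the other distal peaks linked in the same way. A fixed link joins more peaks where density is higher. Density was 0.370 peaks per Mb in deserts and 1.29 per Mb in the other distal sequence, and the shares were not adjusted for it. The genome had 2817 unbroken deserts, and 265 of them (9.41%) held a peak: 187 held 1, and 78 held the other 214 peaks. Deserts with a peak were longer, with a median of 376 kb against 168 kb without. These lengths are spans of coordinates, with chromosome ends and gaps of unknown sequence included, where no peak could be called in a gap. Of the 306 deserts over 1 Mb, 252 had none. The longest of these, 5217 kb between the protocadherin genes Pcdh20 and Pcdh9, and the next, 4796 kb between Cntnap5b and Cdh20, are flanked by neuronal and cadherin adhesion genes.

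Both deserts beside Myc, the growth and proliferation factor, were occupied. The desert between Myc and Gsdmc (chr15:62087423-63708758, 1621 kb) held 13 peaks, more than any other. Distances from the Myc TSS began at 281 kb, for a peak in the lncRNA gene Pvt1, followed by 3 peaks at 446, 451 and 469 kb. Then came a cluster of 8, the largest of all, over 133 kb (chr15:62786561-62919908), at 799, 835, 842, 848, 850, 898, 913 and 932 kb. The last peak lay at 1080 kb, in an exon of the lncRNA Gm30159. DR1 stood at the 446 kb peak and AP-1 (TGACTCA or TGAGTCA, the site of Fos, Jun and BATF dimers) at the 281 and 451 kb peaks; the 8 peaks of the large cluster held neither. On the other side, between A1bg and Myc, 5 peaks lay at 384, 439, 533, 546 and 587 kb, the nearest with DR1. Myc was the nearest coding gene of 12 desert peaks, the highest number of any gene.

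**Figure D3:**
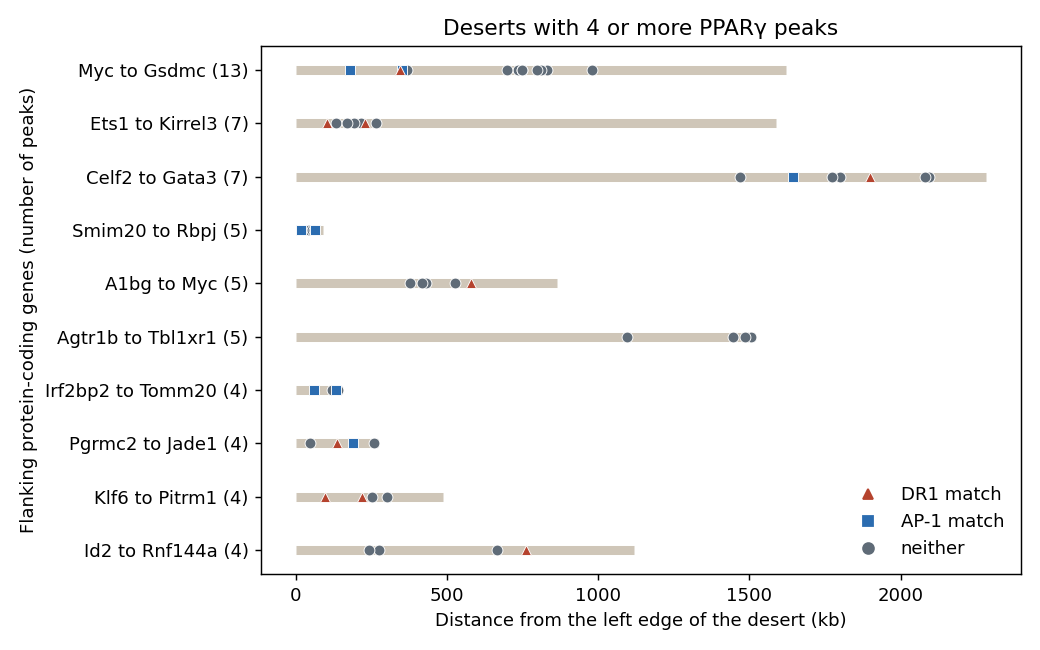
The 10 deserts with at least 4 peaks, each drawn from its left edge, 100 kb from the nearest coding TSS, with distance in kb on the x axis and the flanking coding genes and number of peaks on the y axis. Symbols are peaks with a DR1 match (red triangles), an AP-1 match (blue squares) or neither (grey circles); the 8 grey circles at about the middle of the Myc to Gsdmc desert are the largest cluster.

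Ets1 and Gata3 each had 7 desert peaks. The 7 beside Ets1 formed 1 cluster of 161 kb (chr9:32899875-33061101) at 204, 232, 270, 293, 315, 329 and 365 kb from the Ets1 TSS, in the first part of a desert of 1590 kb that ends at Kirrel3. The peaks at 204 and 329 kb held DR1, and 2 of the 7 lay in the lncRNA genes Gm27162 and Gm27166, the first of them 0.289 kb from the TSS of Gm27162. Those between Celf2 and Gata3 lay at 289, 300.5, 483, 584, 611, 737 and 913 kb from Gata3, in a desert of 2283 kb. They were spread more widely than those beside Ets1, with DR1 at 483 kb and AP-1 at 737 kb.

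The other 6 deserts with at least 4 peaks had 26 in all. Between Smim20 and Rbpj, the gene of the Notch effector RBPJ, 5 peaks filled 44.7 kb of a desert of only 88.7 kb, 2 of them with AP-1. Beside Tbl1xr1, which encodes an exchange factor for nuclear receptor corepressors, 4 of 5 peaks lay between 103 and 162 kb and the other at 513 kb, none with DR1 or AP-1. The desert between Klf6, a zinc finger factor gene, and Pitrm1, a mitochondrial peptidase gene, held 4 peaks at 199, 320, 352 and 400.3 kb from Klf6. The nearer 2 of these held DR1, and the last 2 were closer to Pitrm1, at 335 and 286 kb. In the desert between Id2 and Rnf144a 4 peaks lay at 342, 374, 767 and 862 kb from Id2, the last with DR1. The desert between Irf2bp2, a transcriptional corepressor gene, and Tomm20, of the mitochondrial import channel, held 4 peaks, 2 with AP-1. That between Pgrmc2, a haem chaperone gene, and Jade1, of a histone acetyltransferase complex, held 4, 1 with DR1 and 1 with AP-1. Over the 10 deserts, 9 of 58 peaks (15.5%, 7.35 to 27.4%) held DR1, beside 14.96% of all members.

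Regulators of T cells were frequent among the neighbours of desert peaks, while 1 of 70 lipid and PPAR target genes had such a peak. Of all 21911 coding gene symbols, 1.39% hosted or were nearest to a desert peak; among the 4180 genes with desert sequence nearest to their TSS, 6.79% had a peak in it. Of 68 T cell transcription factor genes, 17 (25%) had one, and among the 40 of them with desert sequence, 16 (40%). Their desert sequence, 13.2 Mb, held 49 peaks or 3.72 per Mb. Besides those already given, Maf, a driver of IL-4 expression, had 2 peaks at 310 and 321 kb, Runx1 2 at 231 and 366 kb, Ikzf2 1 at 223 kb, Tox 1 at 228 kb, Foxp1 1 at 127 kb, Nfil3 1 at 139 kb and Jun 1 at 136 kb. Etv6 hosted a peak with both DR1 and AP-1, 182 kb from its own TSS and 178 kb from that of Bcl2l14, the nearest coding gene. The lists were chosen with earlier results of these data known, so the counts are a description.

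T cell receptor and cytokine genes had 5 of 77 with a desert peak (6.49%), among them Tgfbr2 with 3 at 119 to 166 kb, Ptger4 with 2 at 202 and 203 kb and Ptger2 with 1, the latter both prostaglandin E2 receptor genes. S1pr1, the receptor for egress from lymph nodes, had 1 at 151 kb, and Cd226, a costimulatory receptor gene, 1 at 283 kb. Of 67 signalling genes and brakes of T cells, 9 (13.4%) had a peak: the phosphatase genes Dusp4 and Dusp10, Nfkbiz (2 peaks at 204 and 239 kb, 1 with DR1), the ubiquitin ligase gene Cblb at 291 kb, Themis at 102 kb, Nrp1 (2), and the hosts Inpp4b, Arhgap15 and Dock8. Of 70 lipid and PPAR target genes, 1 had a desert peak (1.43%): Eci2, an enoyl-CoA isomerase of fatty acid oxidation, at 102 kb. That share was near the 1.39% of all genes, but only 11 of the 70 had desert sequence. Of these 11, 1 (9.09%) had a peak in it, beside 6.79% of all genes with desert sequence. By the same count the receptor and cytokine genes had 5 of 15 (33.3%) and the signalling genes 9 of 37 (24.3%). The lipid density, from 1 peak, was 0.584 per Mb, beside 0.370 over all desert sequence. Pvt1 was the 1 gene with a peak among 44 microRNA and lncRNA genes studied in T cells (2.27%). A noncoding gene counted here only as the host of a peak centre, so a short microRNA gene could hardly be counted. The share over all noncoding genes was not computed.

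Long neuronal genes had the lowest density of the 5 lists with desert sequence. All 68 had desert sequence, 83.1 Mb of it, yet only 10 peaks were nearest to them, or 0.120 per Mb, against 0.370 over all desert sequence. Peak density was lower farther from coding start sites, and the lists were not matched for distance. By genes rather than by length, 7 of the 68 (10.3%) had a peak in the desert sequence nearest to them, beside 6.79% of all genes with desert sequence. With hosts counted too it was 11 (16.2%), beside 1.39% of all genes. Sox5 had 3 and Auts2 2, and the others, among them Dlg2, Cdh13, Tenm4 and Anks1b, had 1 each.

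**Figure D4:**
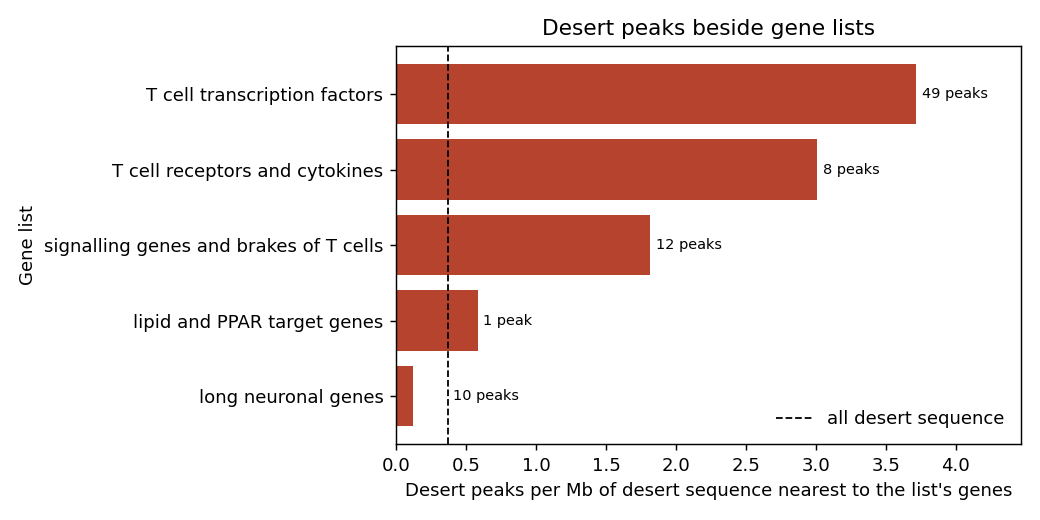
Desert peaks per Mb of desert sequence (x axis) nearest to the genes of each list (y axis), with the number of peaks beside each bar; the dashed line is the density over all desert sequence, 0.370 per Mb. The 3 lists of T cell genes lie at 1.81 to 3.72 per Mb and the long neuronal genes at 0.120. The lists are not matched for distance to coding start sites.

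Sequence was then compared between desert peaks and the 1932 other distal peaks, in windows of 200 bp around peak centres on both strands. DR1 was AGGTCA, 1 base, AGGTCA with at most 2 mismatches. None of 26 motifs differed after adjustment (Fisher's exact test, two-sided, Benjamini-Hochberg adjusted p under 0.05; percent called 0), and 4 had an unadjusted p under 0.05. DR1 stood in 60 of 401 desert peaks (14.96%, 11.6 to 18.8%) and in 396 of 1932 other distal peaks (20.5%), a log2 odds ratio of -0.54 ± 0.22 (SE; adjusted p = 0.26, Fisher's exact test). Of all 200 bp tiles of desert sequence, 1.92% held DR1, and of tiles of distal sequence within 100 kb of a coding TSS 2.63%. Relative to its own territory DR1 was thus 7.78-fold more frequent in desert peaks and 7.80-fold in the other distal peaks.

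DR1 was then compared outside and inside genes. Among peaks in no annotated gene, 27 of 236 desert peaks (11.4%, 7.68 to 16.2%) and 160 of 677 other distal peaks (23.6%) held DR1, a log2 odds ratio of -1.24 ± 0.32 (SE; adjusted p = 0.00092, Fisher's exact test). Inside genes, 33 of 165 desert peaks (20%) and 236 of 1255 other distal peaks (18.8%) held it, a log2 odds ratio of 0.12 ± 0.30 (SE; adjusted p = 1, Fisher's exact test). The difference between these 2 log2 odds ratios, outside minus inside genes, was -1.36 ± 0.44 (SE; p = 0.0019, Zelen's exact test). Adjusted over 26 motifs this p was 0.0504, so the difference just missed the threshold in the exact test, and a normal approximation put it at 0.047. The comparison inside genes and the test between the classes were chosen after the values were seen. GC content moved with the sets: the median was 40.2% in desert and 44.0% in other distal peaks outside genes, and 41.5 and 43.0% inside genes. Its part in the DR1 difference was not tested. By the larger set of GENCODE transcripts 102 of the 401 members no longer met the rule, through distance or a promoter. With that set the log2 odds ratio over all host classes was -0.82 (adjusted p = 0.026, Fisher's exact test). The single AGGTCA motif was called too (21.1 against 29.2%, adjusted p = 0.048, Fisher's exact test).

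DR1 matches were seldom perfect in either set. Of the 60 desert peaks, 1 had an exact repeat (1.67%), 17 had 1 mismatch (28.3%) and 42 had 2 (70.0%). In the other distal peaks 23 of 396 (5.81%) were exact, 28.0% had 1 mismatch and 66.2% had 2. The difference in these shares was not tested. The spacer base was A in 33 of 60 (55.0%) and the base before the repeat T in 31 (51.7%), against 50.8 and 44.7% in the other distal peaks. The best matches lay a median of 25 bp from the desert peak centre and 32 bp in the other distal peaks. To show the best sites next to a second motif, the 5 desert peaks with at most 1 DR1 mismatch and an AP-1 match in the window are given with their DR1 in repeat orientation, capitals marking bases that match AGGTCA. They lay in Cux1 (chr5:136379399-136379411, minus strand), in Myo16 (chr8:10589466-10589478, plus), in the lncRNA gene Gm32004 (chr13:107548677-107548689, minus), in Slc24a3 (chr2:145588186-145588198, plus) and 244 kb from Klf4 in no gene (chr4:55776009-55776021, plus).
Cux1: AGGTCAgAGGTCA
Myo16: AGGTCAaAaGTCA
Gm32004: gGGTCAcAGGTCA
Slc24a3: AGGTCAgAGGcCA
Klf4 desert: AGGTgAgAGGTCA
The Cux1 site was the exact one, and it is repeat-masked in the reference.

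AP-1 stood in 72 desert peaks (17.96%, 14.3 to 22.1%) and 361 other distal peaks (18.7%), a log2 odds ratio of -0.06 ± 0.21 (SE; adjusted p = 0.84, Fisher's exact test; 95% interval -0.47 to 0.34). It was 6.19-fold above the desert tiles, of which 2.90% held it. DR1 without AP-1 was present in 42 desert peaks, AP-1 without DR1 in 54, both in 18 and neither in 287 (71.6%); the other distal peaks had neither in 63.9%. By host, DR1 stood in 25 of 114 desert peaks in coding genes (21.9%) and in 8 of 51 in lncRNA genes (15.7%). AP-1 stood in 50 of 232 peaks at 100 to 200 kb (21.6%, 16.4 to 27.4%) and in 22 of 169 beyond 200 kb (13.0%, 8.34 to 19.04%). Over the same split the shares were 16.8 and 12.4% for DR1. For motifs defined in the next paragraph they were 31.5 and 30.8% (GATA), 9.48 and 5.92% (ETS) and 6.03 and 9.47% (RUNX). The split by distance was not tested for any motif.

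Motifs of other factors of T cells ranged from below to well above the level of desert sequence. GATA sites (AGATAA or TGATAA) stood in 31.2% of desert peaks, 26.3% of other distal peaks and 27.4% of desert tiles. A STAT6-type site (TTC, 4 bases, GAA) stood in 10.5%, 7.40% and 6.25%, and the RUNX site TGTGGTT in 7.48%, 7.51% and 4.29%. The ETS site (AGGAAGT or CGGAAGT) was at 7.98%, 8.80% and 4.89%. ROR sites, an A/T-rich stretch before AGGTCA or GGGTCA that can overlap DR1, were in 3.99% of desert peaks and 0.668% of tiles. The BATF and IRF composite, GAAA before an AP-1 site, was in 4 desert peaks (0.998%) and 0.0485% of tiles, and an NF-kB site in 3.74% and 1.22%. The NFAT site TGGAAAA was below its tiles, at 4.99 against 7.55%. The T-box site AGGTGTGA was in 0 of 401 desert peaks, which allows a share of up to 0.748% (3 counts of 401), and in 19 other distal peaks; its tiles were at 0.659%. A scrambled DR1 (GTAGAC, 1 base, CAGTGA, with the same 2 mismatches) was in 1.496% of desert peaks and 1.64% of tiles. The plot of motif matches shows DR1 and AP-1 far to the right of their tiles.

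**Figure D5:**
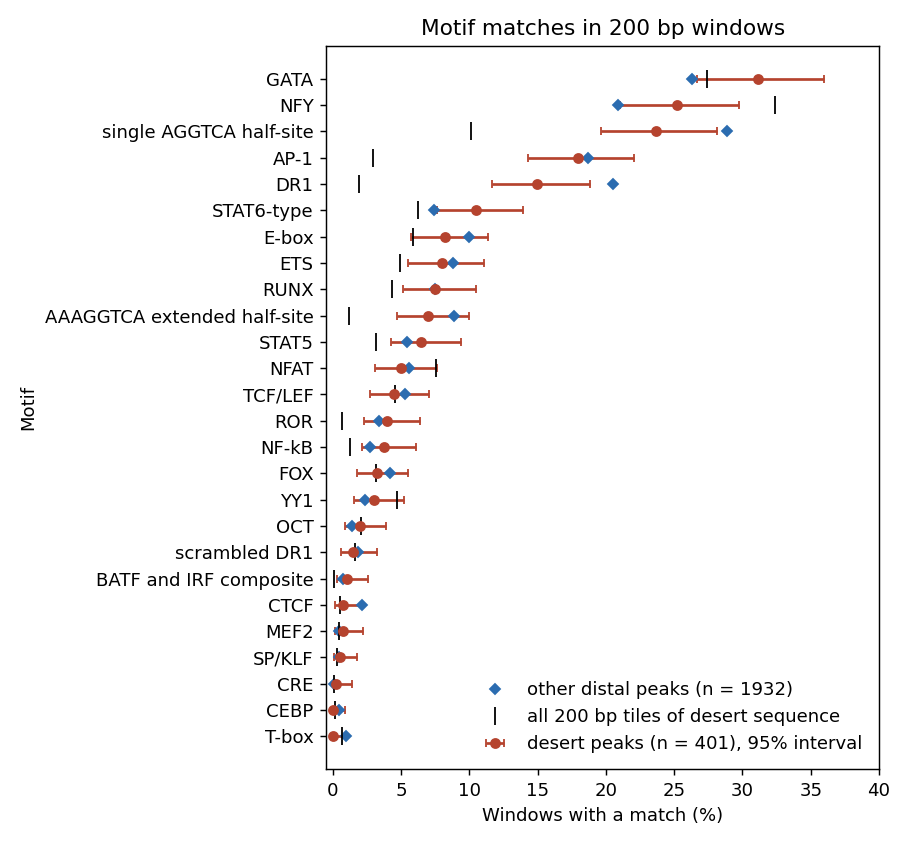
Share of 200 bp windows with a match (x axis, percent) for each of 26 motifs (y axis): red circles are the 401 desert peaks with exact 95% binomial intervals, blue diamonds the 1932 other distal peaks, and black ticks all 200 bp tiles of desert sequence. DR1 is at 14.96% in desert peaks against 1.92% of tiles, and AP-1 at 17.96 against 2.90%.

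Within desert peaks DR1 was concentrated at the centre. Matches within 50 bp of the centre numbered 48 (1.19 per kb) and those at 300 to 500 bp 20 (0.124 per kb), a ratio of 9.55 (log2 3.26 ± 0.38 SE; adjusted p = 1.4e-18, exact binomial test over matches, two-sided). AP-1 had 1.09 matches per kb at the centre and 0.254 in the flanks, 4.27-fold (adjusted p = 1.8e-10, exact binomial test). GATA was at 1.75 and 1.56 per kb (1.13-fold, adjusted p = 0.49) and scrambled DR1 at 0.0741 and 0.112 per kb (adjusted p = 0.78, exact binomial test). In the other distal peaks the same ratio was 7.34 for DR1, 4.09 for AP-1, 1.30 for GATA and 1.44 for scrambled DR1. In that larger set of peaks the GATA ratio passed the threshold (adjusted p = 7.9e-05, exact binomial test).

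Repeats covered a smaller share of desert peak centres than of desert sequence. A centre was repeat-masked in 66 of 401 desert peaks (16.5%, 13.0 to 20.5%) and 324 of 1932 other distal peaks (16.8%), a log2 odds ratio of -0.03 ± 0.21 (SE; p = 0.94, Fisher's exact test, two-sided). With over 50% of the peak required to be masked, the shares were 6.98 and 9.73%, a log2 odds ratio of -0.50 ± 0.30 (SE; p = 0.089, Fisher's exact test). Of desert sequence 40.4% was masked. Whether reads could be placed uniquely in masked sequence was not tested. Of the DR1 sites 7 of 60 desert ones (11.7%) and 65 of 396 others (16.4%) were masked. Median GC content was 41.0% in desert and 43.5% in other distal windows.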

How the data were processed

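Reads were aligned to mm10 with Bowtie2 and HOMER called the peaks, per the submitters' processing notes; tool versions are not given in the sources used here. The authors' peaks were 173 bp wide, needed 8 tags at a false discovery rate of 0.001, and had to be 4-fold above input and above the surrounding 10000 bp, per the file headers. The score column as deposited holds 1 in every row and ranked nothing.

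Genes came from the basic transcripts of GENCODE vM21, and sequence and repeat masking from GRCm38. The basic set was taken after it gave 401 members; the comprehensive set gives 299 and was added as an alternative. The members and gene lists were chosen with earlier results of these data known. Named are host genes with at least 2 desert peaks, flanking genes of deserts with at least 4, list genes with a desert peak, and noncoding genes with at least 2 desert peaks in the gene or within 10 kb of its TSS; other genes and the microRNAs were chosen after values were seen. Of 398 listed symbols 394 matched the annotation, and 8 of 13 microRNA genes had a RefSeq sequence. Tests were Fisher's exact, exact binomial and Zelen's exact, the last with a normal approximation beside it. They were adjusted by Benjamini-Hochberg within each family at 0.05, except the tests of repeats, which are unadjusted. Intervals at 95% were Clopper-Pearson for shares, exact Poisson for densities and by normal approximation for the log2 odds ratio. Scripts were tested on simulated data. Analyses used Python 3.11.15, numpy 2.4.6, pandas 2.3.3 and scipy 1.17.1.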

Additional observations from a re-analysis of the deposited data

How the results depend on the processing

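The desert count was 740 with a limit of 50 kb and 169 with 200 kb, and 299 to 462 under 4 other definitions. Counting coding hosts only, 28.4% of peaks lay in a host. With 25 kb linkage 77 peaks were clustered. The number of motifs called was 1 for peaks outside genes and 2 with comprehensive transcripts, and 0 under 9 other settings. The DR1 log2 odds ratio was -1.24 outside genes and -0.82 with comprehensive transcripts, both past the threshold; it was 0.12 inside genes and below 0 in 11 of 12 settings, adjusted p 0.00092 to 1. The AP-1 ratio ranged from -0.40 (comprehensive transcripts) to 0.19 over 11 settings and changed sign at 0.052 (100 bp windows), 0.17 (400 bp), 0.018 (all other peaks), 0.12 (the first 1268 rows) and 0.19 (inside genes), none past the threshold. The cause of these changes was not tested. DR1 at peak centres kept its direction and side under its alternative. The count of T cell transcription factor genes was 17, with 15 by comprehensive transcripts and 16 without the deserts beside Myc. That last setting drops the Myc peaks by definition, so the loss of Myc was fixed in advance. The peaks per Mb of the gene lists were not recomputed. The repeat log2 odds ratio was -0.03 by the centre and -0.50 by over 50% of the peak, neither past the threshold. Some alternatives were chosen after seeing the data: comprehensive transcripts, peaks inside genes, and leaving out the deserts beside Myc. With 1 library no replicate could be left out. No paired analysis was possible because there was 1 ChIP library. Peak height and depth per peak were not analysed here.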
